A study of Mus musculus with 47 samples.

Results

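The maxillary crest at E11.5 is the set of cranial neural crest cells collected from the maxillary subpopulation (Mx) of mouse embryos at E11.5, a mid-gestation embryonic day. Its members were taken from the sample labels alone: the 3 wild-type E11.5 Mx libraries, of 47 libraries in the RNA-seq count table. They were set against the 9 wild-type E11.5 libraries of the frontonasal process (FNP), the mandibular part of the first arch (Md) and the second pharyngeal arch (PA2), 3 libraries each. The PA2 Control libraries, which belong to a Hoxa2 deletion experiment, did not enter this comparison. All 4 groups compared are wild type of the same age, and none carries a deletion or a treatment in the labels. Wild-type crest at E10.5 (2 Mx libraries, and 9 of FNP, Md and PA2) and Ezh2cKO crest at E10.5 (conditional loss of Ezh2, 3 libraries in each subpopulation) were read for the genes found here. The tissues were dissected, dissociated with trypsin and sorted by fluorescence. The labels name no reporter or Cre driver for the sort, and they do not say how many embryos or litters each library came from. The p-values therefore measure the spread between these libraries, and the labels do not say how far it is technical. Within each group the libraries differed in the summed level of Xist and Y-linked genes (given at the end), and their origin was not tested.

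The maxillary process is the upper, proximal part of the first pharyngeal arch. Its crest mesenchyme forms the upper jaw and cheek bones, the secondary palate and the mesenchyme of the upper molars, and the trigeminal nerve grows through it. Cranial crest is patterned by place: Hox genes mark the second arch and are silent in the first, endothelin signalling switches on Dlx5, Dlx6 and Hand2 in the distal (lower jaw) part of the arches, and Alx genes mark the frontonasal crest. The maxillary crest is classically described by Dlx1 and Dlx2 without the distal Dlx genes, and by the LIM homeobox genes Lhx6 and Lhx8 of the oral mesenchyme.

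The 12 libraries held 24784054 to 37706046 counts, and those of Mx 24784054 to 31997388. Replicate 3 of Mx was the shallowest and had the most genes detected, 24146 against 22709 in the lowest of the 12 libraries. Replicate 3 of FNP stood apart from the other 2 FNP libraries by 1 measure: chi-square per degree of freedom between libraries was 65.3 and 71.3 against them, and 12.1 between replicates 1 and 2. This measure included mitochondrial genes, which held 19.5%, 18.0% and 11.7% of the counts in FNP replicates 1, 2 and 3. Their part in it was not tested. The Mx libraries lay at 1 end of the second principal component, which held 17.1% of the variance. The summed level of 12 cranial crest mesenchyme genes was 2937 to 3345 CPM (the usual normalised read count, scaled to a common library total) in Mx and 2563 to 2879 in the other 9 libraries, so the labelled cell type's markers were present at a high level in Mx. Much of this sum came from 1 gene, Prrx1, and in each single pair members of the list went both ways. In bulk RNA, fewer cells of a type and less RNA per cell cannot be told apart, and this holds for every difference below.

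Lhx6 and Foxl2 mark these cells, and both were higher in Mx than in each of the other subpopulations. Lhx6 encodes a LIM homeobox factor of the oral mesenchyme, and its level was 168, 167 and 187 CPM in Mx. It was 67, 72.6 and 77.6 CPM in Md, 10.2 ± 1.15 in PA2 (mean ± SD, n = 3) and 1.81, 3.9 and 1.33 in FNP. The Mx libraries lay above all 9 others, and Md formed a middle step between Mx and the 2 remaining groups. The log2 fold change was 1.26 ± 0.19 (SE) against Md (adjusted p = 4.29e-06), 4.09 ± 0.22 against PA2 and 6.22 ± 0.25 against FNP.

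Foxl2, a forkhead factor best known from ovary and eyelid, was 17.4, 15.4 and 16.4 CPM in Mx. In FNP its level was 1.44, 1.60 and 1.40 CPM, and in Md and PA2 no library exceeded 0.420 CPM. No other library came near the Mx range. Against the mean log2 level of the other 3 subpopulations, the change was 5.58 ± 0.25 for Foxl2 (adjusted p = 2.95e-20) and 3.86 ± 0.15 for Lhx6 (adjusted p = 1.13e-22). Lhx8, the paralogue that acts with Lhx6 in palate and tooth mesenchyme, was 155 ± 9.33 CPM in Mx (SD, n = 3), 95.1 ± 2.63 in Md, 28.6 ± 3.23 in FNP and 27.5 ± 4.08 in PA2, and differed from each (log2 fold change against Md 0.70 ± 0.16, adjusted p = 0.00221).

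The start regions of 4 genes are shown because 3 of them (Lhx6, Foxl2 and Hey2) were higher in Mx than in each other subpopulation and the fourth (Foxc1) was lower than in each. They are RefSeq sequences of 300 bases on GRCm38.p6, from 250 bases before to 50 after the start of the gene, read along the gene's strand: Lhx6 at chr2:36105359-36105658 (minus strand), Foxl2 at chr9:98955357-98955656 (plus), Hey2 at chr10:30842734-30843033 (minus) and Foxc1 at chr13:31806396-31806695 (plus). Capitals mark each CpG, the dinucleotide that is dense at promoters held by Polycomb complexes.
Lhx6: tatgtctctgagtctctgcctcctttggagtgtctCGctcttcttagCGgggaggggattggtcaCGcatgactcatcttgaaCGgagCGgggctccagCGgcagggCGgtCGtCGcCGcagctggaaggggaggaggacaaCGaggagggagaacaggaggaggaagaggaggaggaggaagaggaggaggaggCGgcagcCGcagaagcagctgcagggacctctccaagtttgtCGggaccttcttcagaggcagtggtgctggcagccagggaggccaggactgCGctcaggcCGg
Foxl2: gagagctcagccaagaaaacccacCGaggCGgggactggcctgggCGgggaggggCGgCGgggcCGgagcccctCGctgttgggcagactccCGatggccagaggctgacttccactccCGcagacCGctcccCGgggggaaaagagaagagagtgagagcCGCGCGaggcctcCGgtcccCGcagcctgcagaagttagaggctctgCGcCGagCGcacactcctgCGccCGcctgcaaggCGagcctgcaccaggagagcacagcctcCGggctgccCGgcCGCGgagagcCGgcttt
Hey2: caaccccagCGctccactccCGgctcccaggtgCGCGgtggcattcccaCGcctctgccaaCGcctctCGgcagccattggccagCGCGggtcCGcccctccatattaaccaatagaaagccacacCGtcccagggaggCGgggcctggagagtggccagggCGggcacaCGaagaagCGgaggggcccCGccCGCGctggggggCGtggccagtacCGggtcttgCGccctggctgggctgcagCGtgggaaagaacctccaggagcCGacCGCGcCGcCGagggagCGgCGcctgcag
Foxc1: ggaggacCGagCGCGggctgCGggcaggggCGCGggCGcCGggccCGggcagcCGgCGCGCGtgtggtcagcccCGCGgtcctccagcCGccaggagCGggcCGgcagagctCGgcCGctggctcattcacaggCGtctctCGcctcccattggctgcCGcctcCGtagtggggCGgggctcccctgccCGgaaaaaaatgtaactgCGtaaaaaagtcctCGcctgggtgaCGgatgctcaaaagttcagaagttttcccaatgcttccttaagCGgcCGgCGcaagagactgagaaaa
The 4 windows held 16, 27, 29 and 32 CpG in that order. The homeodomain core TAATTA and the TCF/LEF core CTTTGAT, searched on both strands, matched in none of the 4. Of the 233 genes highest in Mx (defined below), 138 matched the promoter table, with a median of 18 CpG per window. TAATTA was found in 3 of those windows (2.2%) and CTTTGAT in 3 (2.2%), against 2.73% and 2.48% of the windows of 11409 tested genes, whose median was 20 CpG. For the genes lowest in Mx (157 of 230 matched) the median was 21 CpG, and the shares were 1.27% and 1.27% (2 windows each). CACGTG, an E-box that is its own reverse complement, was in 7.97%, 6.37% and 9.69% of the windows of the highest, lowest and all tested genes. The shares in both groups of genes lay under those of all tested genes. Those of TAATTA and CTTTGAT rest on too few windows to be read as a difference, and none was tested. A match or its absence describes only the letters in this window.

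Across 20560 tested genes, 1200 (5.84%) were higher in Mx than in the mean of the other 3 subpopulations and 1130 (5.5%) were lower at an adjusted p under 0.05. Without replicate 3 of Mx, 780 were higher. Against the single subpopulations, 1734 genes (8.43%) were higher and 1696 (8.25%) lower than in FNP, 869 (4.23%) higher and 1019 (4.96%) lower than in Md, and 1357 (6.6%) higher and 1591 (7.74%) lower than in PA2. The FNP counts depended on single libraries: 1017 were higher without replicate 3 of Mx, and 1107 were higher and 1107 lower without replicate 3 of FNP. By count of called genes, Md was nearest to Mx (9.18% called in either direction, against 14.3% for PA2 and 16.7% for FNP), and these 3 comparisons share the Mx libraries. A gene called in the same direction against each of FNP, Md and PA2 is described here as highest or lowest in Mx: 233 genes (1.13%) were highest and 230 (1.12%) lowest. In 221 of the 233 and 217 of the 230, no Mx library overlapped any of the 9 others. Over all tested genes, the Mx libraries lay above the 9 others for 578 (2.81%) and below them for 554 (2.69%). The highest and lowest sets were chosen by tests on these same libraries, so their lack of overlap is in part fixed by that choice.

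Among the genes highest in Mx were transcription factors. The rule that named genes of largest fold at E11.5 also asked for no overlap between the libraries compared. For the genes it named, highest or lowest, the lack of overlap was thus fixed by the choice. Genes named by a list alone met no such condition. Hey2, a basic helix-loop-helix repressor downstream of Notch, was 80.1, 85.2 and 71.9 CPM in Mx. Levels were 34.1, 31.1 and 38.0 CPM in FNP, 20.9, 21.9 and 28.2 in Md and at most 0.643 in PA2. The groups did not overlap, and Hey2 fell step by step from Mx to FNP, Md and PA2 (log2 fold change against FNP, the nearest, 1.20 ± 0.19, adjusted p = 8.6e-06). Pax1, a paired-box factor of pharyngeal and skeletal precursors, had the same order: 104 ± 4.27 CPM in Mx, 43.3 ± 7.98 in FNP, 21.8 ± 5.48 in Md and 1.94 ± 0.374 in PA2 (3.09 ± 0.22 against the mean of the others, adjusted p = 4.74e-14). Vgll3, a cofactor of TEAD transcription factors, was 37.2 ± 4.22 CPM in Mx and 11.7 ± 1.34 in Md, its next highest group (log2 fold change 1.67 ± 0.25, adjusted p = 2.5e-06).

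Kcna4, a voltage-gated potassium channel, also belonged to the set highest in Mx and was 7.64, 6.15 and 8.75 CPM in Mx and at most 0.963 in any other library (4.56 ± 0.29, adjusted p = 4.86e-15). Cntn6, an adhesion molecule of the contactin family, was 8.26, 5.98 and 9.31 CPM in Mx against 2.41, 2.01 and 1.84 in Md and at most 0.242 in FNP and PA2 (4.40 ± 0.31, adjusted p = 1.91e-14). Neither gene had an Mx library near the range of the others, and both were lowest in replicate 2 of Mx and highest in replicate 3. Chodl (a C-type lectin), Avpr1a (a vasopressin receptor), Mdga2 (an adhesion molecule of the immunoglobulin family), Gria2 (a glutamate receptor subunit) and Ryr2 (an intracellular calcium channel) were also highest in Mx, with log2 fold changes against the mean of the others of 3.03, 2.99, 2.79, 2.67 and 2.64. Tmem30b, a subunit of lipid flippases, was 2.75 ± 0.14 above that mean, but its level in FNP (12 ± 0.761 CPM) was not separated from that in Mx (15.9 ± 1.82; adjusted p = 0.0904).

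Genes of neurons were in the same set. Of 20 neuron markers, 7 were higher and 4 lower than the mean of the others, and 1 was highest and 1 (Ntrk2, given below) lowest in Mx. Their summed level was 144 to 163 CPM in Mx, 136 to 164 in FNP, 113 to 127 in Md and 220 to 254 in PA2. The 1 highest in Mx was Pou4f1, a homeobox factor of sensory neurons, at 0.679, 0.0887 and 1.16 CPM in Mx and at most 0.217 in the others (3.89 ± 0.67, adjusted p = 3e-05). Replicate 2 of Mx was thus not above all other libraries. The Mx libraries of Pou4f1 had the same order as those of Kcna4 and Cntn6. Prdm12 (a factor of sensory neurons), Chrna3 and Chrnb4 (nicotinic receptor subunits), Grin2b (a glutamate receptor subunit), Snap25 (a synaptic vesicle fusion protein) and Rbfox3 (a splicing factor of neurons) were highest in Mx too and were chosen after their values were seen. They were between 2.01 (Chrnb4) and 4.18 (Prdm12) above the mean of the others on the log2 scale. Levels were low: Prdm12 was at most 0.490 CPM in Mx, and Chrna3, the most abundant of the 6, was 4.21 to 5.08. The part of neurons in the levels of the channel, receptor and adhesion genes was not tested.

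Lrtm1, a leucine-rich repeat membrane protein highest in Mx, was 16.4 ± 3.42 CPM in Mx against 6.24 ± 0.493, 5.79 ± 1.48 and 5.52 ± 0.840 in FNP, Md and PA2. Galnt13 (a glycosyltransferase), Cpne8 (a copine) and Sema3d (a secreted semaphorin) were highest in Mx too, at 2.12 ± 0.27, 1.89 ± 0.14 and 2 ± 0.16 above the mean of the others. Lepr, the leptin receptor, was picked after its values were seen: it was 76.7, 75.1 and 82.0 CPM in Mx and at most 36.0 in any other library (1.71 ± 0.12, adjusted p = 1.3e-14).

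**Figure D1:**
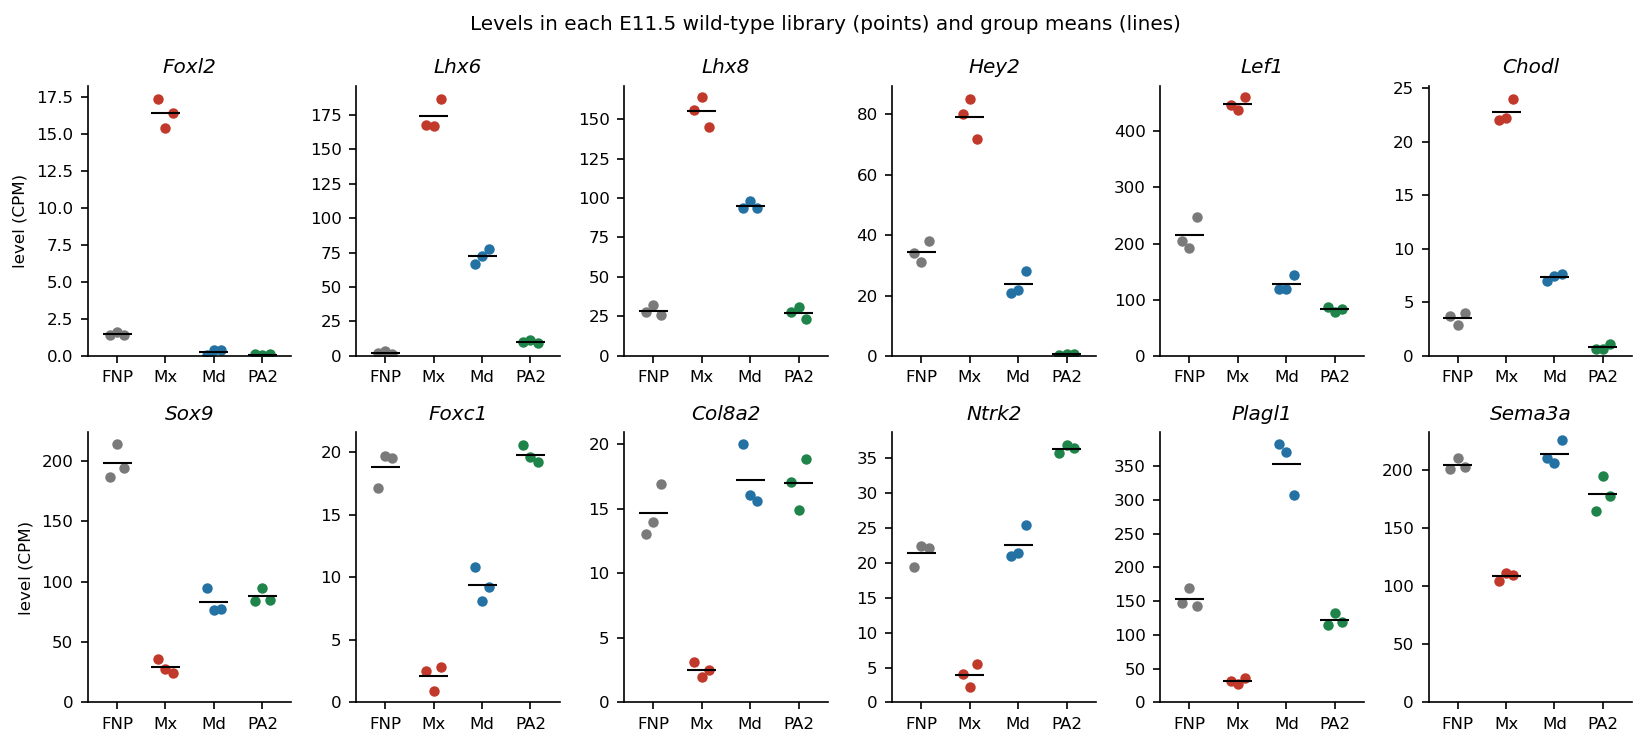
Levels of 12 genes (CPM on scaled library totals, linear axes from 0) in each E11.5 library of FNP, Mx, Md and PA2, with 1 point per library and a line at each group's mean. Foxl2, Lhx6, Lhx8, Hey2, Lef1 and Chodl are above the other subpopulations in all 3 Mx libraries, and Sox9, Foxc1, Col8a2, Ntrk2, Plagl1 and Sema3a are below them.

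Maxillary and proximal arch regulators were mostly higher in Mx than in FNP and went both ways against Md and PA2. Of 14 maxillary and proximal arch regulators, 11 were higher than the mean of the others and 2 lower, with a median log2 fold change of 0.96 beside 0.00 over all tested genes. In single pairs, 13 of the 14 were higher than in FNP and none lower, while 5 were higher and 6 lower than in Md, and 7 were higher and 7 lower than in PA2. Highest in Mx were 4 of the 14: Foxl2, Lhx6, Lhx8 and Pou3f3, a POU-domain factor (73.5 ± 10.3 CPM in Mx against 44.2 ± 3.8 in PA2, the nearest). Dlx1, a distal-less homeobox gene of the whole arch, was 59.5, 66.6 and 53.6 CPM in Mx, 134, 117 and 117 in Md and 178, 188 and 164 in PA2, while FNP held at most 0.594. Its level rose from FNP through Mx to Md and PA2 without overlap, and Mx was lower than Md by -1.03 ± 0.12 on the log2 scale and higher than FNP by 6.90 ± 0.18 (adjusted p = 1.54e-08 and 1.68e-28). Dlx2 took the same order (16.4 ± 3.83 CPM in Mx, 0.256 ± 0.101 in FNP, 23.3 ± 2.49 in Md and 33.5 ± 2.97 in PA2), as did Sim2, a bHLH-PAS factor (11.6 ± 4.96, 0.158 ± 0.0473, 31.2 ± 5.62 and 67.1 ± 4.72 CPM). For Sim2 the difference from the mean of the others was 0.72 ± 0.19 (adjusted p = 0.0078), and it did not pass the threshold without replicate 1 (adjusted p = 0.0918) or replicate 3 of Mx (adjusted p = 0.163).

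Barx1, a homeobox gene of the molar and proximal jaw mesenchyme, separated Mx from FNP and PA2 but not from Md. It was 54.6 ± 7.34 CPM in Mx and 56.8 ± 9.13 in Md (log2 fold change -0.06 ± 0.17, adjusted p = 0.93), against 30.1 ± 5.92 in PA2 and 1.18 ± 0.153 in FNP. Meis2, a TALE homeobox cofactor, was 379, 362 and 463 CPM in Mx, above FNP (52.3 to 61.2) and Md (282 to 301) and under PA2 (966 to 1000). The 2 members that were lower than the mean of the others were Tshz1, a zinc finger factor (44.4 ± 5.10 CPM in Mx, 30.2 ± 2.53 in FNP, 146 ± 14.3 in Md and 236 ± 11 in PA2), and Nr2f2, an orphan nuclear receptor (52.8 ± 15.3, 49.1 ± 6.55, 213 ± 19.0 and 133 ± 10.8 CPM).

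Of 11 distal arch regulators, none was higher and 7 were lower, with a median of -2.29. Dlx5, the distal counterpart of Dlx1 and Dlx2, was 32.4, 29.1 and 27.9 CPM in Mx and 23.1, 22.6 and 38.0 in FNP, against 126, 116 and 134 in Md and 183, 143 and 152 in PA2. Mx overlapped FNP and lay under Md and PA2 (log2 fold change -2.07 ± 0.15 against Md and -2.42 ± 0.16 against PA2). Dlx6 was 1.82 ± 0.325 CPM in Mx and 14.8 ± 0.914 in Md. Dlx3, the third distal Dlx gene named here, was the 1 member lowest in Mx, at 1.5, 2.25 and 0.875 CPM against 2.45 to 3.53 in FNP, 27.9 to 35.3 in Md and 82.2 to 95.2 in PA2 (-3.70 ± 0.19 against the mean of the others, adjusted p = 1.56e-18). Gsc, a homeobox gene of the lower jaw, was 2.16 ± 0.316 CPM in Mx and 10.8 ± 1.58 in Md. The basic helix-loop-helix genes of the most distal crest were close to absent: Hand2 was at most 0.105 CPM and Hand1 at most 0.0592 CPM in Mx, against 21.7 ± 2.83 and 12.5 ± 3 in Md. Pitx1, a homeobox gene of the lower jaw, was 0.382 ± 0.163 CPM in Mx and 47.8 ± 3.01 in Md (-6.93 ± 0.43, adjusted p = 3.57e-16). FNP held at most 0.0946 CPM of Pitx1 and 0.0266 of Hand2, and the calls of Hand2 and Pitx1 against the mean of the others were lost without replicate 3 of FNP (adjusted p = 0.127 and 0.304), where the log2 fold changes were -4.23 and -2.01, from -4.33 and -2.29 with all libraries. The call of Hand2 was also lost without replicate 1 of FNP (adjusted p = 0.104), and that of Pitx1 without replicate 1 or 3 of Mx (adjusted p = 0.0515 and 0.0748).

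Frontonasal regulators ran the other way. Of 7, 4 were higher in Mx than in the mean of the others and 0 were lower, with a median of 1.19, and none was highest in Mx. In single pairs, 0 were higher and 6 lower than in FNP (median -2.44). Against Md, 6 were higher and 0 lower (median 1.52), and against PA2, 7 were higher and 0 lower (median 3.51). Pax3, a paired-box factor of the frontonasal and early crest, was 143, 152 and 163 CPM in Mx, 208, 228 and 207 in FNP, 46.2, 47.3 and 54.1 in Md and at most 0.683 in PA2. The 4 groups did not overlap, and Mx was lower than FNP by -0.49 ± 0.17 (adjusted p = 0.034) and higher than Md by 1.63 ± 0.17. The cartilage homeoprotein gene Alx1 had the same order: FNP held 349 ± 8.15 CPM, Mx 64.5 ± 6.32, Md 22.5 ± 6.98 and PA2 1.19 ± 0.314. Alx4 was 273 ± 24.7, 141 ± 10.6, 114 ± 9.69 and 5.49 ± 0.443 CPM in that order, and Mx and Md were not separated (adjusted p = 0.136). Pax7 and Gata2, a GATA factor, were high in FNP (160 ± 13.1 and 137 ± 17.9 CPM) and low in Mx (2.21 ± 1.80 and 4.77 ± 1.58), while both were lower still in Md and PA2.

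Anterior Hox genes separated Mx from PA2 above all. The summed level of 11 was 2.84 to 3.75 CPM in Mx, 233 to 251 in PA2, 2.38 to 4.55 in Md and at most 0.310 in FNP. Hoxa2, the selector gene of the second arch, was 0.255, 0 and 0.245 CPM in Mx against 194, 199 and 183 in PA2. With 2 counts over the 3 Mx libraries, the PA2 to Mx ratio of Hoxa3 was 1499.6, with a 95% counting interval of 415 to 12389. Hoxb2 had 1 count in Mx and a ratio of 681 (interval 122 to 26931), and Hoxb3os, an antisense transcript that these unstranded libraries cannot separate from the genes it overlaps, had 2 counts and a ratio of 844 (233 to 6972). These intervals cover counting error only. Hoxd1 was the exception: it was 3.37, 2.75 and 2.70 CPM in Mx, 0.594, 0.959 and 1.27 in Md, 1.27, 1.24 and 0.675 in PA2 and at most 0.129 in FNP. The Mx libraries lay above the 9 others, and Hoxd1 was highest in Mx (1.64 ± 0.40 against Md, adjusted p = 0.00452). Of the 11 tested, 1 was called higher and 1 lower than the mean of the others, with a median fitted change of -2.13, which is no bound since most members are near 0 in Mx. At 0 counts in every Mx library were Hoxa4, Hoxb1 and Hoxb4.

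**Figure D2:**
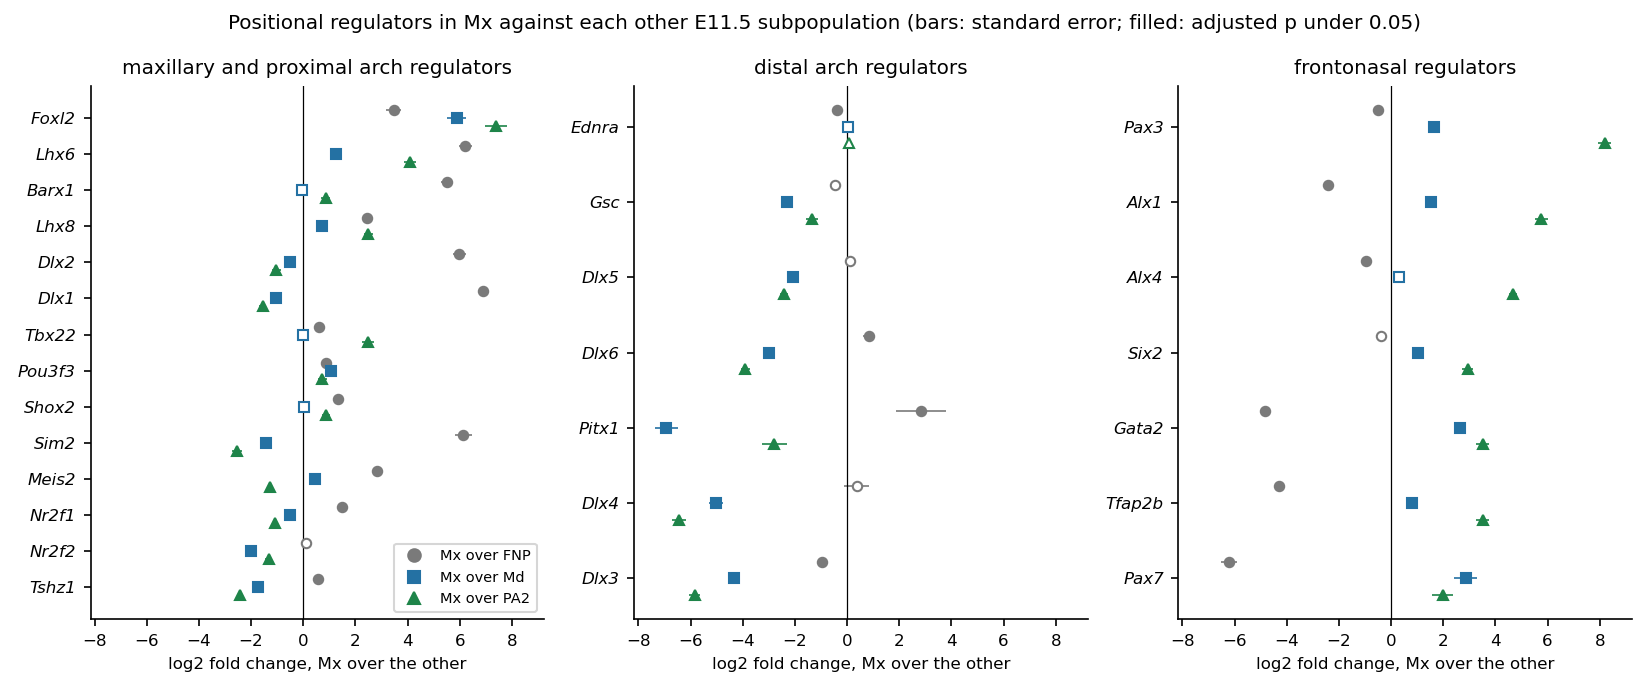
Log2 fold change of Mx against FNP, Md and PA2 (horizontal axis, bars of 1 SE) for positional regulators with at least 10 counts summed over the Mx libraries, so Hand2, Hand1, Nkx3-2 and Edn1 are not drawn. Filled points passed an adjusted p of 0.05. Dlx1 and Dlx2 lie to the right against FNP and to the left against Md and PA2, and Lhx6 and Foxl2 lie to the right against all 3.

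Of 27 genes of palate and tooth mesenchyme, 16 were higher and 4 lower in Mx than the mean of the others, with a median of 0.60, and 5 were highest in Mx. In single pairs, 13 were higher and 7 lower than in FNP, 12 higher and 5 lower than in Md, and 16 higher and 6 lower than in PA2. Their summed level was 3190 to 3353 CPM in Mx, 3326 to 3403 in FNP, 2541 to 2829 in Md and 2697 to 2785 in PA2, so Mx overlapped FNP. Osr2, a zinc finger factor of the palatal shelves, was 54.2, 51.8 and 59.2 CPM in Mx, 29.6, 26.7 and 32.3 in Md, 11.6 ± 1.06 in PA2 (mean ± SD) and 6.23, 7.33 and 8.07 in FNP. The Mx libraries lay above all others (0.90 ± 0.19 against Md, adjusted p = 0.000663). The T-box genes Tbx2 and Tbx3 were 112 ± 2.72 and 204 ± 17.6 CPM in Mx, 75.5 ± 1.09 and 129 ± 2.93 in FNP, 36.1 ± 2.71 and 101 ± 11.6 in Md and 15.8 ± 0.814 and 25.2 ± 0.997 in PA2. The paralogue of Osr2 behaved differently: Osr1 was 54.1 ± 4.96 CPM in Mx, 110 ± 16.7 in Md, 103 ± 17.8 in PA2 and 2.88 ± 0.918 in FNP. The member lowest in Mx was Pdgfra, the receptor of the PDGF ligands that palate mesenchyme needs, at 448, 447 and 421 CPM in Mx, 517 to 555 in FNP, 612 to 657 in Md and 990 to 1045 in PA2 (-0.68 ± 0.08, adjusted p = 1.22e-08). Pax9, a paired-box factor of tooth and palate, was 56.2 ± 4.5 CPM in Mx, near Md (58.7 ± 6.90) and well under FNP (182 ± 6.34).

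Of 15 cartilage and bone genes, 3 were higher than the mean of the others, 6 were lower and 6 were not called, with a median of 0.17. Their summed level was 1235 to 1395 CPM in Mx, inside the 993 to 1637 of the others. The 4 lowest in Mx were Sox9, Col2a1, Col9a1 and Acan. Sox9, the master regulator of cartilage, was 36.1, 28.0 and 24.5 CPM in Mx, 95.0, 76.8 and 77.7 in Md, 83.8, 94.8 and 84.7 in PA2 and 187, 214 and 194 in FNP. No Mx library reached the range of the others, and the difference was -1.93 ± 0.10 against their mean (adjusted p = 1.59e-18) and -1.49 ± 0.11 against Md alone. The cartilage matrix genes Col2a1 and Col9a1, which Sox9 activates, were lowest in Mx as well: Col2a1 was 106 ± 15.3 CPM in Mx and 185 ± 14.4 to 218 ± 34.1 in the other groups, and Col9a1 was 10.9 ± 3.55 in Mx and 21.2 ± 2.09 to 78.9 ± 5.83 in the others. Acan, the cartilage proteoglycan aggrecan, was at most 0.175 CPM in Mx and 0.772 to 1.90 in the other libraries, with 6 counts in all over the Mx libraries. The fitted change of Acan was -4.30 ± 0.46 (adjusted p = 1.27e-09) and became -6.14 without replicate 3 of Mx and -3.69 without replicate 1, so its size is loose at these counts.

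Runx2, the master regulator of bone, was 289, 291 and 286 CPM in Mx, 223, 207 and 240 in FNP, 150, 152 and 156 in Md and 39.0, 38.7 and 40.4 in PA2. The Mx libraries were above all others in level, although the difference from FNP did not pass the test (0.37 ± 0.17, adjusted p = 0.127), and that from Md did (0.92 ± 0.17, adjusted p = 7.99e-05). Sp7, which acts after Runx2 in bone cells, was 7.38 ± 1.26 CPM in Mx, 7.88 ± 0.752 in Md, 11.8 ± 1.61 in FNP and 1.01 ± 0.0779 in PA2. Spp1, the bone matrix protein osteopontin, had 2 counts over the Mx libraries, and its ratio was 102 for Md to Mx (interval 28.0 to 849) and 316 for PA2 to Mx (87.1 to 2616).

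The genes lowest in Mx included forkhead factors of the head mesenchyme. Foxc1 was 2.55, 0.887 and 2.80 CPM in Mx, 17.1, 19.7 and 19.5 in FNP, 10.9, 8.09 and 9.20 in Md and 20.6, 19.6 and 19.2 in PA2. No Mx library overlapped the others (-2.88 ± 0.22, adjusted p = 1.47e-13), and its paralogue Foxc2 went with it (1.27 ± 0.513 CPM in Mx against 3.16 ± 0.571, 12.7 ± 1.60 and 11.7 ± 1.80 in FNP, Md and PA2). Foxd1, a forkhead gene that responds to hedgehog, was 2.36 ± 1.10 CPM in Mx and 4.02 ± 0.589 in PA2, the nearest group. Foxd2 was lowest in Mx too (-1.62 ± 0.24 against the mean of the others, and -2.29 without replicate 3 of Mx).

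Growth factor and matrix genes were also in the lowest set. Tgfa, a ligand of the EGF receptor, was 0.537, 0.266 and 0.490 CPM in Mx and 14.9, 18.3 and 15.1 in FNP. In Md and PA2 it was 1.32 to 3 CPM, and no library of theirs reached the Mx range (-3.31 ± 0.27 against the mean of the others, adjusted p = 9.46e-13). Col8a2, a short-chain collagen, was 3.14, 1.95 and 2.49 CPM in Mx and 13 to 20 in the 9 other libraries, whose 3 groups overlapped among themselves (-2.68 ± 0.21, adjusted p = 2.17e-13). Cdh3, the adhesion molecule P-cadherin, was 2.34 ± 0.125 CPM in Mx and 9.59 ± 0.403 to 17.5 ± 1.45 in the other groups. Erg, an ETS factor shared by endothelium and cartilage, was 1.82 ± 0.142 CPM in Mx and 6.51 ± 0.661, 6.96 ± 1.07 and 21.6 ± 2.07 in FNP, Md and PA2. Of 10 endothelial markers, Erg among them, 2 were lower than the mean of the others and 8 were not called. Their summed level was 10.8 to 12.3 CPM in Mx, 10.9 to 21.4 in FNP, 21.5 to 29.9 in Md and 33.7 to 36.2 in PA2, so Mx overlapped FNP, and the part of endothelium in these results was not tested.

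The imprinted zinc finger gene Plagl1 was 31.0, 27.0 and 36.1 CPM in Mx, 147, 169 and 143 in FNP, 382, 370 and 308 in Md and 114, 133 and 119 in PA2 (-2.58 ± 0.29, adjusted p = 6.05e-09). Dlk1, another imprinted gene, chosen after its values were seen, was 17.2 ± 1.92 CPM in Mx against 126 to 147 CPM in Md and 54.9 ± 11.6 in PA2, but it was not lowest in Mx, since FNP was lower still, at 10.9 to 12.8 CPM. Zcchc5, a gene on the X chromosome, was 0.638 ± 0.0553 CPM in Mx and 41.8 ± 3.72 in Md. The urea transporter gene Slc14a1 was 0.277 ± 0.115 CPM in Mx against 1.52 ± 0.252 in FNP, the nearest group. Dmrt2, a doublesex-related factor, was high in PA2 alone (15.9 ± 1.60 CPM) and at 4 counts over the Mx libraries, where it was not separated from Md (adjusted p = 0.103).

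Signalling pathways showed members moving both ways. Of 44 Wnt pathway genes, 10 were higher and 11 lower than the mean of the others (median -0.08). The transcription factor gene Lef1, which carries the Wnt signal in the nucleus, was 446, 437 and 461 CPM in Mx, 205, 192 and 248 in FNP, 119, 118 and 144 in Md and 86.8, 77.7 and 83.7 in PA2. It was highest in Mx with no overlap (1.06 ± 0.11 against FNP, adjusted p = 6.03e-10). The Wnt agonist Rspo3 was highest in Mx too (74.2 ± 0.968 CPM, and 53.5 ± 4.54 in FNP). Lowest in Mx were the secreted antagonists Dkk2 (37.6 ± 4.72 CPM, and 57.0 ± 7.31 in Md) and Sfrp1 (137 ± 5.49 CPM, and 186 ± 13.8 in FNP), with the receptor Fzd1 (121 ± 2.35 CPM, and 159 ± 17.6 in PA2).

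Of 26 BMP pathway genes, 4 were higher and 4 lower (median 0.06). None of them was highest in Mx, and the type 1 receptor Bmpr1b was lowest, at 23.8, 22.6 and 22.9 CPM against 25 to 31.7 in FNP, 53.4 to 67.5 in Md and 119 to 136 in PA2. Mx lay just under FNP (-0.30 ± 0.10, adjusted p = 0.036) and far under the other 2 groups. Among 18 Notch pathway genes, 5 were higher and 3 lower (median -0.04). The ligand Jag1 was highest in Mx beside Hey2 (34.8 ± 1.88 CPM, and 26.6 ± 3.67 in Md), whereas Hes1, another Notch effector, was lowest (3.34 ± 0.355 CPM, and 6.07 ± 0.230 in Md).

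Of 28 FGF pathway genes, 3 were higher and 8 lower (median -0.12). Il17rd, a membrane inhibitor of FGF signalling, was lowest in Mx at 63.9 ± 3.79 CPM against 79.5 ± 3.52 in Md, 129 ± 3.16 in PA2 and 149 ± 4.59 in FNP. The receptor Fgfr2 and the ligand Fgf10 were higher than the mean of the others (0.47 ± 0.06 and 0.70 ± 0.15), and neither was separated from FNP (adjusted p = 0.186 and 0.791), nor Fgf10 from Md (adjusted p = 0.285). In the hedgehog pathway 4 of 15 tested genes were higher and 5 lower (median 0.18), and the 4 lowest in Mx included Hhip, a secreted antagonist (2.39 ± 1.20 CPM, and 6.08 ± 0.502 in PA2).

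Genes of retinoic acid synthesis moved apart. Aldh1a2 was 108, 92.8 and 131 CPM in Mx, 63.2, 53.1 and 71.6 in Md, 81.7, 65.8 and 71.3 in PA2 and 14.2, 15 and 17.5 in FNP. All 3 Mx libraries lay above the rest, although the difference from PA2 missed the threshold (0.60 ± 0.22, adjusted p = 0.0559). Aldh1a3 was 2.15 ± 0.545 CPM in Mx and lowest there, with 5.00 ± 0.539 in Md as the nearest. Rdh10, which makes the precursor of retinoic acid, was also lowest in Mx (15.6 ± 0.980 CPM, and 27.0 ± 2.84 in Md). In all, 2 of 18 retinoic acid genes were higher and 4 lower (median 0.07). The endothelin pathway had 1 higher and 1 lower of 8 tested genes (median -0.04). The higher one was Mef2c, a MADS-box factor, at 62.2 ± 4.14 CPM in Mx and 38.0 ± 1.23 in FNP, the nearest.

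Guidance cues and neurotrophins matter in a process that the maxillary branch of the trigeminal nerve enters. Of 32, 6 were higher and 7 lower (median -0.09). Slit2, a secreted repellent, was 178, 192 and 202 CPM in Mx, 134 to 144 in Md, 98.5 to 106 in PA2 and 58.0 to 94.2 in FNP, with no overlap (0.47 ± 0.12 against Md, adjusted p = 0.00699). The neurotrophin Ntf3 was highest in Mx (19.7 ± 0.577 CPM, and 14.0 ± 0.616 in PA2), and Bdnf was 24.8 ± 1.31 CPM but not separated from PA2 (21.3 ± 1.14; adjusted p = 0.578). Lowest in Mx were Sema3a, a secreted repellent of sensory axons, at 104, 112 and 110 CPM against 165 to 227 in the 9 others (-0.87 ± 0.08, adjusted p = 3.87e-11), and Efnb2, an ephrin ligand, at 142 ± 5.47 CPM against 210 ± 19.7 in Md, the nearest. Semaphorin and netrin receptors, chosen after their values were seen, were unequal: Plxna4 was 107 ± 2.54 CPM in Mx and highest there (42.2 ± 5.17 in Md), and Unc5c was 62.8 ± 9.75 CPM and lowest (191 ± 24.4 in Md). Ntrk2, the receptor of Bdnf, was 4.10, 2.22 and 5.46 CPM in Mx and 19.5 to 37.0 in the 9 other libraries (-2.74 ± 0.20, adjusted p = 6.43e-14).

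**Figure D3:**
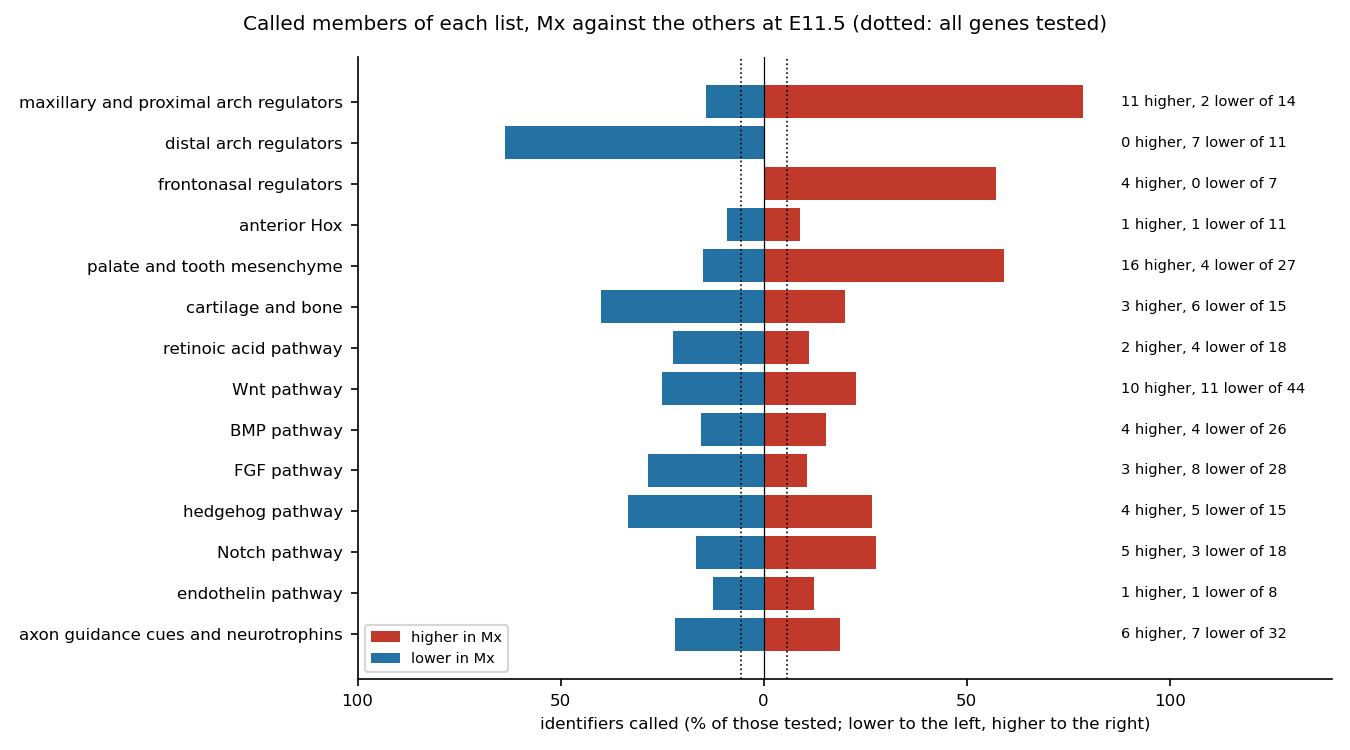
Share of the tested genes of each list (horizontal axis, percent) that were higher (right, red) or lower (left, blue) in Mx than the mean of FNP, Md and PA2 at an adjusted p under 0.05, with dotted lines at the shares over all tested genes and counts printed beside each list. Maxillary and proximal regulators (11 higher, 2 lower) and palate and tooth genes (16 and 4) lean to the right, and distal regulators (0 and 7) to the left.

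In single pairs, 4 more genes are given here, each with at least 5 CPM in the higher group and no overlap between the libraries compared. Ret, a receptor of GDNF family ligands, was lower than in FNP by -5.90 ± 0.37 (0.148 ± 0.0626 against 8.80 ± 1.03 CPM). Thrb, a thyroid hormone receptor, was higher than in Md by 3.46 ± 0.25 (8.36 ± 0.983 against 0.758 ± 0.0865 CPM), and FNP was higher still at 14.9 ± 0.602. Dsc3, a desmosomal cadherin, was lower than in Md by -7.01 ± 0.55 (6 counts over the Mx libraries, against 8.41 ± 2.94 CPM in Md). Tnn, a tenascin of developing bone, was higher than in PA2 by 7.30 ± 0.51 (8.77 ± 1.22 against 0.0513 ± 0.0473 CPM).

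The pattern of the maxillary crest was then set beside the same contrast at E10.5, which has 2 Mx libraries. The difference between stages (the E11.5 contrast minus the E10.5 contrast) was positive for 418 genes (2.03%) and negative for 645 (3.14%). Without replicate 1 or 2 of E10.5 Mx, 217 and 175 were positive, and 410 were negative without replicate 1. Over all 20560 tested genes, 898 were higher in Mx than the mean of the others at E10.5 and 598 lower. Of the 233 genes highest in Mx at E11.5, 93 were higher than the mean of the others at E10.5 and 8 lower, and of the 230 lowest, 95 were lower and 9 higher. Because these sets were chosen on E11.5 values, a shift towards a wider difference at that stage is in part fixed by the choice: 85 of the 233 had a positive difference between stages and 94 of the 230 a negative one.

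Lhx6 and Foxl2 were in place at E10.5. In the E10.5 Mx libraries Lhx6 was 151 and 152 CPM and Foxl2 7.27 and 10.3, and the difference between stages did not pass the test for either (adjusted p = 0.203 and 0.319). Lef1 and Sox9 took their maxillary pattern between the stages. Lef1 was 107 and 112 CPM in E10.5 Mx with a contrast of 0.20 ± 0.10 (adjusted p = 0.342), and the difference between stages was 1.57 ± 0.14 (adjusted p = 1.01e-10). Sox9 was 127 and 128 CPM in E10.5 Mx with a contrast of -0.14 ± 0.10 (adjusted p = 0.605), and the difference between stages was -1.79 ± 0.14 (adjusted p = 1.15e-12). Foxc1 was already lower at E10.5 (-1.44 ± 0.21), and its difference between stages was -1.44 ± 0.29 (adjusted p = 0.000553).

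Other genes changed their place between the stages, and not all of them changed side. Hpgd, the enzyme that breaks down prostaglandins, was 95.9, 89.3 and 81.9 CPM in E11.5 Mx and highest there, and 1.20 and 1.38 CPM in E10.5 Mx, below the mean of the others (difference between stages 5.23 ± 0.30, adjusted p = 2.65e-16). Ntrk2 was higher than the mean of the others at E10.5 (1.53 ± 0.21) and lowest in Mx at E11.5 (difference -4.27 ± 0.28, adjusted p = 1.92e-14). Chodl, Gng4 (a G protein subunit) and Ptprt (a receptor phosphatase) were at most 0.160 CPM in E10.5 Mx and had positive differences of 4.94 ± 1.13, 6.29 ± 1.32 and 3.86 ± 0.41. The caveolar gene Sdpr and the proteoglycan gene Dcn had positive differences of 3.75 ± 0.34 and 3.61 ± 0.56. At E11.5 Sdpr was lower than the mean of the others (-0.98 ± 0.17) and Dcn was not called (adjusted p = 0.503).

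Among the genes printed here, chosen from those with at least 5 CPM in Mx or in the others at 1 of the stages, Sst and Onecut1 had the most negative differences. Sst (a neuropeptide) was 8.02 and 11.8 CPM in E10.5 Mx and at most 0.07 in E11.5 Mx, and Onecut1 (a homeobox factor) was 4.81 and 6.62 against at most 0.07. Ppp1r1c (a phosphatase inhibitor), Pde2a (a phosphodiesterase), Mstn (myostatin) and Srrm4 (a splicing factor of neurons) had differences of -6.48, -5.89, -5.79 and -5.63. Srrm4 was 29.4 and 36.9 CPM in E10.5 Mx and 0.266 to 1.82 in E11.5 Mx, where the other E11.5 libraries held at most 1.16. Of 20 neuron markers, 12 had a negative difference between stages and none a positive one, and their summed level was 436 to 490 CPM in E10.5 Mx against 49.7 to 129 in the other E10.5 libraries, 144 to 163 in E11.5 Mx and 113 to 254 in the other E11.5 libraries. Of 12 glia and melanoblast markers 5 were negative, with sums of 130 to 154 CPM in E10.5 Mx, 38.7 to 66.4 in the other E10.5 libraries and 45.5 to 53.5 in E11.5 Mx. Erythroid markers (4 of 6 negative) summed to 337 to 403 CPM in E10.5 Mx, 25.2 to 423 in the other E10.5 libraries and 35.4 to 47.5 in E11.5 Mx. The part of these cell types in the differences between stages was not tested.

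**Figure D4:**
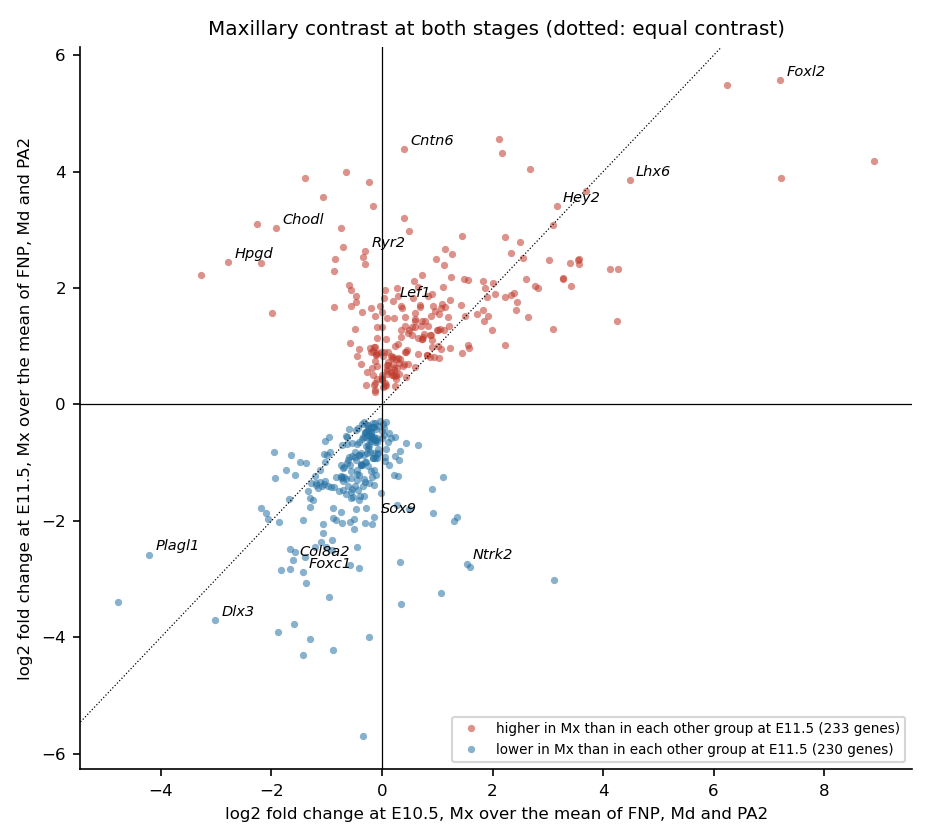
Log2 fold change of Mx against the mean of FNP, Md and PA2 at E10.5 (horizontal) and E11.5 (vertical) for the 233 genes highest (red) and 230 lowest (blue) in Mx at E11.5, with a dotted line where both contrasts are equal. Lhx6 and Foxl2 lie high on both axes, Lef1 and Sox9 lie near 0 at E10.5 and away from it at E11.5, and Ntrk2 and Hpgd change side.

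Ezh2 is the methyltransferase of a Polycomb complex, which silences developmental genes by marking histone H3. Ezh2 was 359 and 365 CPM in wild-type E10.5 Mx and 129 to 154 in the 3 Ezh2cKO Mx libraries. Over all 4 subpopulations it was 350 to 405 CPM in wild type and 113 to 157 in Ezh2cKO, so counts of Ezh2 remained. Of the 233 genes highest in Mx at E11.5, 43 (18.5%) were higher in Ezh2cKO than in wild type at E10.5 in FNP. The number was 48 (20.6%) for Mx, 48 (20.6%) for Md and 64 (27.5%) for PA2. Over all tested genes the shares that were higher were 4.97%, 6.85%, 6.69% and 6.64% in the same order, and the shares that were lower 1.83%, 3.41%, 2.18% and 2.53%. Lower in Ezh2cKO were 7, 22, 11 and 6 of the 233. Of the 230 genes lowest in Mx, 40 (17.4%), 74 (32.2%), 53 (23%) and 56 (24.3%) were higher in Ezh2cKO, and 6, 9, 9 and 16 were lower. Both sets thus held larger shares of genes higher in Ezh2cKO than all tested genes, in each subpopulation. Their shares of genes lower in Ezh2cKO also lay above those of all tested genes in each subpopulation, though barely for the highest set in PA2. The excess was therefore not of 1 direction alone. In Mx the reference was the wild-type E10.5 Mx libraries, whose neuron and glia marker sums lay above those of the other wild-type E10.5 libraries. The part of those cells in the calls in Mx was not tested. The count of 48 in Mx was 28 and 19 without replicate 1 or 2 of wild-type E10.5 Mx, and 31 without replicate 1 of Ezh2cKO Mx. Whether the share differs between subpopulations was not tested.

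Lhx6 and Foxl2 were higher in Ezh2cKO crest of other subpopulations, and neither was called in Mx. Lhx6 rose by 2.31 in FNP (adjusted p = 4.64e-07) and by 1.80 in PA2 (adjusted p = 2.18e-07), while its change was -0.48 in Mx (adjusted p = 0.16) and -0.39 in Md (adjusted p = 0.26). Foxl2 rose by 1.24 in FNP (adjusted p = 0.023) and 2.89 in Md (adjusted p = 0.013). It rose in PA2 from 0 counts in wild type (adjusted p = 0.00123), where no fold can be given, and its change in Mx was 0.07 (adjusted p = 0.937). Lhx8 rose in FNP by 0.98 (adjusted p = 9.18e-05). Of the distal genes, Dlx3, Dlx6, Gsc and Pitx1 rose in Mx, by 1.17, 1.16, 3.07 and 3.48, and Hand2 had a change of 1.70 (adjusted p = 0.0549). Hoxa2 and Hoxa3 rose in Mx from at most 0.106 CPM, and the fitted changes of 5.52 and 8.31 are no measure of the fold at such counts. Foxc1, Col8a2, Plagl1 and Erg, all lowest in Mx at E11.5, rose in Ezh2cKO Mx by 0.92, 1.03, 1.96 and 1.55. Differences of these effects between subpopulations were not tested.

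Markers of other cells were measured beside these results. Neuron markers gave 7 of 20 higher and 4 lower in Mx (median 0.63), and the pan-neuronal Stmn2 and Tubb3 were 38.4 ± 6.07 and 14.8 ± 1.76 CPM in Mx, 42.4 ± 6.17 and 12 ± 1.46 in FNP, and at most 5.28 and 8.27 in Md and PA2. Neurod1, a factor of sensory neuron precursors, was 0.792, 0 and 2 CPM in the Mx libraries, and at most 0.686 in the others (3.90 ± 0.73, adjusted p = 0.00012). Replicate 3 of Mx was highest and replicate 2 lowest, as for Pou4f1. Glia and melanoblast markers gave 5 of 12 higher and 1 lower (median 0.24), with a sum of 45.5 to 53.5 CPM in Mx against 36.3 to 64.9 in the others. Epithelial markers gave 1 of 9 higher and 3 lower, with Epcam lowest in Mx at 0.963 ± 0.0169 CPM, and summed to 6.42 to 8.96 CPM in Mx against 6.44 to 24.1. Muscle and cranial mesoderm markers gave none higher and 3 of 15 lower, and summed to 3.22 to 6.93 CPM in Mx, 7.27 to 17.4 in Md and PA2 and 154 to 179 in FNP, where Pax7 made up most of the sum. Leukocyte markers gave 1 of 5 higher (8.02 to 10.4 CPM in Mx, and 5.91 to 9.16 in the others). Of 12 neural tube and eye genes and 6 erythroid genes none was called at an adjusted p under 0.05, and the erythroid sum was 35.4 to 47.5 CPM in Mx against 26.4 to 78.5. The part of these cells in the differences above was not tested. Of 15 proliferation genes none was called in either direction, and their sum was 3888 to 4069 CPM in Mx against 3432 to 4195 in the others. Of 13 immediate early genes 2 were lower, with a sum of 117 to 131 CPM in Mx against 116 to 260.

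**Figure D5:**
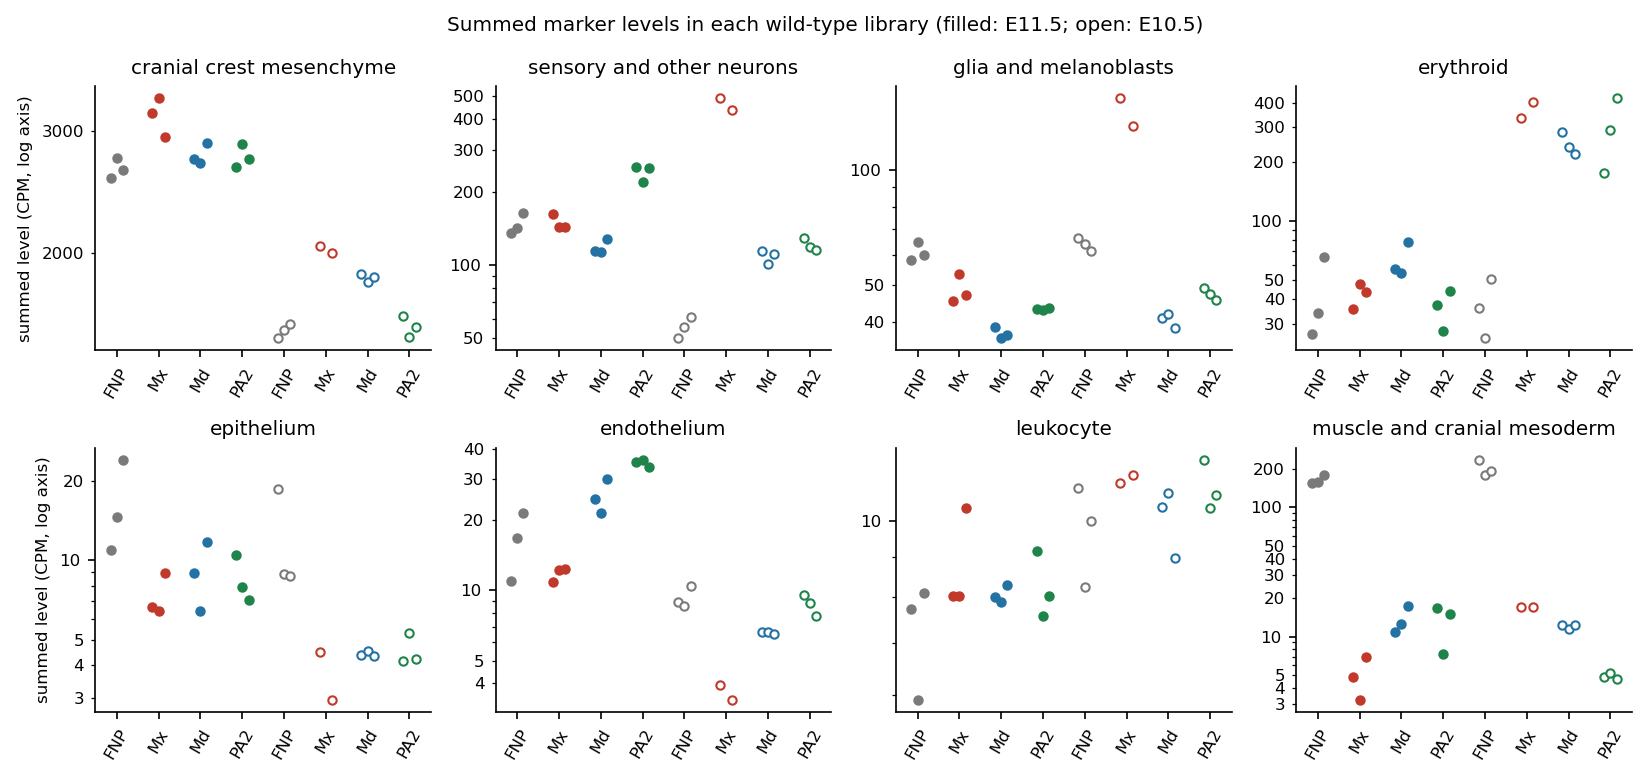
Summed level of 8 marker lists (CPM, log axis) in each wild-type library of FNP, Mx, Md and PA2, with 1 point per library, filled at E11.5 and open at E10.5. Neuron and glia sums of the E10.5 Mx libraries lie above all others shown, and erythroid sums are high in Mx, Md and PA2 at E10.5.

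Within the crest list, 5 of 12 genes were higher and 2 lower (median 0.31), and 1 was highest and 2 were lowest in Mx. In single pairs, 3 were higher and 6 lower than in FNP, 6 higher and 3 lower than in Md, and 6 higher and 4 lower than in PA2. Prrx1, a homeobox gene of craniofacial mesenchyme chosen after its values were seen, carried much of the sum: it was 1663, 1857 and 1568 CPM in Mx, 1256, 1355 and 1326 in Md, 963, 1064 and 1027 in PA2 and 635, 667 and 591 in FNP. It was highest in Mx with no overlap (0.37 ± 0.09 against Md, adjusted p = 0.00526). Without Prrx1, the sum in Mx lies under those of FNP and PA2 and overlaps that of Md. Twist1, a bHLH factor of crest mesenchyme, was 328 ± 44.4 CPM in Mx and was not called against the mean of the others (0.26 ± 0.15, adjusted p = 0.327).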

How the data were processed

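RNA-seq counts were used as deposited: the authors' table holds whole-number read counts per gene for 47 libraries. The submitters' processing notes name GRCm38 and bcl2fastq 2.17. The aligner, the counting tool and its gene annotation were not given in the sources used here. Libraries were unstranded, per the labels' protocols, so overlapping genes cannot be told apart. Counts were fitted with edgeR 4.0.16 (R 4.3.3): TMM scaling, genes kept by filterByExpr (minimum count 10, minimum total 15; 20560 tested), 1 mean for each of 16 groups, 31 residual degrees of freedom, quasi-likelihood tests, and Benjamini-Hochberg adjustment over all tested genes. A call is an adjusted p under 0.05. Mx was set against the mean log2 level of FNP, Md and PA2 and against each alone. The stage difference is the E11.5 contrast minus the E10.5 contrast. Errors on log2 fold changes are SE, and those on CPM are SD. The procedure was tested on simulated data. Genes were named by lists and by a rule on fold change and level (at least 5 CPM on the higher side). For the E11.5 comparisons the rule also asked for no overlap between the libraries compared, which fixed that outcome for the genes it named. The members and lists were chosen with earlier results of these data known. A few genes of the rule and the lists are not reported here, and list counts and sums leave them out. Alternatives were RLE size factors, DESeq2 1.42.0, no filter, fewer groups, a replicate block, no mitochondrial genes and leaving out each library.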

Additional observations from a re-analysis of the deposited data

Results flagged for a closer look

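The contrast of Mx with the mean of FNP, Md and PA2 differed between E11.5 and E10.5 for 58 of the genes named here, by the edgeR test of the difference itself, adjusted over all tested genes. The values are log2 differences, E11.5 minus E10.5, and a positive value means that Mx stood higher against the others at E11.5. Among genes of neurons, glia and their receptors they were Sst (-9.58), Onecut1 (-7.38), Srrm4 (-5.63), Stmn2 (-4.61), Ntrk2 (-4.27), Ret (-3.28), Sox10 (-3.01) and Tubb3 (-1.87). Among positional, palate and tooth genes they were Sim2 (-1.52), Dlx2 (-1.20), Dlx1 (-1.17), Nr2f2 (-0.76), Tbx2 (0.53), Alx4 (0.83), Osr2 (1.37) and Gsc (2.85). Cartilage, matrix, forkhead and adhesion genes had Spp1 (-5.42), Sox9 (-1.79), Cdh3 (-1.59), Foxc1 (-1.44), Foxc2 (-1.24), Erg (-1.23), Col9a1 (-1.16), Col8a2 (-1.06), Foxd1 (-0.98) and Col2a1 (-0.96). In the signalling pathways the values were Tgfa (-2.36), Aldh1a3 (-2.28), Sfrp1 (-1.11), Hes1 (-1.06), Fgf10 (-0.96), Bmpr1b (-0.78), Il17rd (-0.75), Mef2c (0.53), Jag1 (0.61), Fgfr2 (1.04), Dkk2 (1.14) and Lef1 (1.57). Guidance cues, their receptors and neurotrophins had Bdnf (-1.18), Efnb2 (-0.52), Sema3a (-0.46), Slit2 (0.88), Plxna4 (1.34) and Sema3d (1.72). Of the remaining genes, negative differences were found for Ppp1r1c (-6.48), Pde2a (-5.89) and Mstn (-5.79), and positive ones for Thrb (1.46), Gria2 (1.53), Plagl1 (1.63), Avpr1a (2.50), Ryr2 (2.94), Dcn (3.61), Sdpr (3.75), Ptprt (3.86), Chodl (4.94), Hpgd (5.23) and Gng4 (6.29).

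In all, 23 of these were positive and 35 negative. The E10.5 Mx group has 2 libraries, whose neuron and glia marker sums lay above all other E10.5 libraries, and the part of those cells in these differences was not tested. Genes near 0 counts at either stage, such as Sst, Onecut1, Gng4 and Chodl, have differences that depend on the prior count of the fit and are no measure of a fold.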

How the results depend on the processing

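Leaving out 1 library at a time gave 780 to 1259 genes higher and 854 to 1147 lower in Mx than in the mean of the others. Against FNP the ranges were 1017 to 1829 higher and 1107 to 1731 lower, against Md 622 to 870 and 811 to 1028, and against PA2 1053 to 1361 and 1301 to 1637. Genes highest in Mx numbered 174 to 226 and genes lowest 186 to 226. The stage difference gave 175 to 423 positive and 410 to 658 negative. Of the genes highest in Mx, 30 to 37 were higher in Ezh2cKO FNP, 19 to 56 in Mx, 36 to 49 in Md and 45 to 58 in PA2.

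The other alternatives (RLE size factors, DESeq2, no filter on low counts, only the groups compared, a replicate block, mitochondrial genes left out) gave 1077 to 1284 higher and 1090 to 1216 lower against the others, 214 to 264 highest, 224 to 265 lowest, and 361 to 520 positive and 629 to 807 negative stage differences. With the replicate block, which followed the replicate numbers, 1077 were higher and 1181 lower. The replicate numbers did not meet the bar for pairing, which was a correlation over 0.1 in every same-numbered pair: same-numbered libraries had correlations of deviations of -0.104 to 0.297 (5 of 18 over 0.1), and others -0.206 to 0.242 (10 of 36). Libraries also correlated in sets that cut across the numbers. Replicate 2 of FNP, Mx and PA2 and replicate 1 of Md correlated with each other at 0.111 to 0.237. Replicate 3 of FNP and Md and replicate 1 of Mx and PA2 did so at 0.0852 to 0.297. Replicate 1 of FNP, 2 of Md and 3 of Mx and PA2 did so at 0.0604 to 0.242. Every correlation over 0.1 lay within 1 of these sets, which the labels do not name. The main tests took the libraries as unpaired, and pairing by these sets was not tested. The summed level of Xist and 4 Y-linked genes was 286 to 375 CPM in replicate 2 of FNP, Mx and PA2 and replicate 1 of Md. It was 1297 to 2819 in the 8 others, so each group held 1 low library. Over 126 named genes, none reversed under leave-one-out (1489 of 1512 values kept direction and call) or DESeq2 (122 of 126). The cause of the lost calls was not tested. Each group has 3 libraries or fewer, and genes with under 10 counts over the Mx libraries have no reliable fold.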
